A study of Cricetiscus sungorus with 24 samples.

Results

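Proliferation and cell cycle regulators in the kidney of Siberian hamsters (Phodopus sungorus) were examined as 10 genes chosen by name. They were the proliferation marker Mki67, topoisomerase Top2a, the replication genes Pcna, Mcm2 and Mcm6, the D cyclins Ccnd1, Ccnd2 and Ccnd3, and the cyclin-dependent kinase (CDK) inhibitors Cdkn1a and Cdkn1b. For each gene the transcript with the most reads was taken, so that a read placed on several transcripts of a gene was counted once. All 10 genes were among the 15842 genes listed in experiment 2, whereas 6 of the 10 were among the 9681 genes listed in experiment 1. Mki67, Mcm2, Mcm6 and Cdkn1a were not listed in experiment 1.

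The data were counts of nanopore cDNA reads from whole kidney RNA, with 12 libraries and 1 flow cell per experiment. In experiment 1, adult males were kept in a long photoperiod of 16 h light per day (LP, n = 4) or were moved to a short photoperiod of 8 h light for 12 weeks (SP12wk, n = 4) or 28 weeks (SP28wk, n = 4). In experiment 2, adult females had all spent 8 weeks in the short photoperiod before they were injected intraperitoneally on 3 days with a vehicle of dimethyl sulfoxide and saline (SAL, n = 6) or with 18 µg prolactin (NIAMDD-O-PRL) in that vehicle (PRL, n = 6). The sexes differed between the experiments, and short photoperiod was shared by both female groups, so that the experiments were analysed apart and no female LP group was compared.

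A kidney can become heavier through more cells, larger cells or both, and genes of cell division bear on the first of these. A dividing cell leaves the resting state when mitogens raise a D cyclin, which activates CDK4 and CDK6 to inactivate the retinoblastoma protein and release E2F factors. These switch on genes of DNA replication and mitosis, while the inhibitors p21 and p27 restrain the CDKs. In the adult kidney most tubule cells are at rest and divide rarely.

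The depth set what could be seen of these genes. With 1 transcript per gene, a library held 15687 to 57585 reads in experiment 1 and 174053 to 756523 reads in experiment 2. A read was therefore worth 17.4 to 63.7 CPM (reads per 1000000 reads of the library) in experiment 1 and 1.32 to 5.75 CPM in experiment 2. Levels below are CPM of the library total, given with the SD between animals, and counting error alone is large where a gene had few reads. In experiment 1 the library LP 2 and the library LP 3 stood apart, with 3.31 and 2.90 times as many reads over all transcripts as over 1 transcript per gene, against 2.15 to 2.45 in the other libraries. In experiment 2 the library SAL 6 stood apart over the whole table, with a chi-square per degree of freedom of 4.57 to 7.30 against each other SAL library, where those differed among themselves by 1.80 to 3.87. Megalin (Lrp2) of the proximal tubule, the segment that makes up most of the cortex, was read in all 24 libraries. Of the other markers of this segment, Cubn was not listed in either experiment. In experiment 1, Slc34a1, Slc5a2 and Slc22a6 were read in 6, 6 and 7 of 12 libraries, Miox in 11 and Aqp1 in 12. In experiment 2 each of these was read in all 12 libraries.

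Comparing females given prolactin with females given saline asked whether the hormone moves these genes, and no gene of the 10 passed a test. Of the 7 genes with reads in at least 6 of the 12 libraries, 0 were called by the quasi-likelihood test of edgeR at an adjusted p of 0.05, and the lowest unadjusted p was 0.244. The background in this comparison was 0% of the 10696 genes tested at the adjusted threshold, and 4.88% at an unadjusted p of 0.05, where 0 of the 7 were found. DESeq2 also called 0 of the 7. All 10 genes overlapped between SAL and PRL in CPM, against 0.14% of all genes tested that did not.

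**Figure D1:**
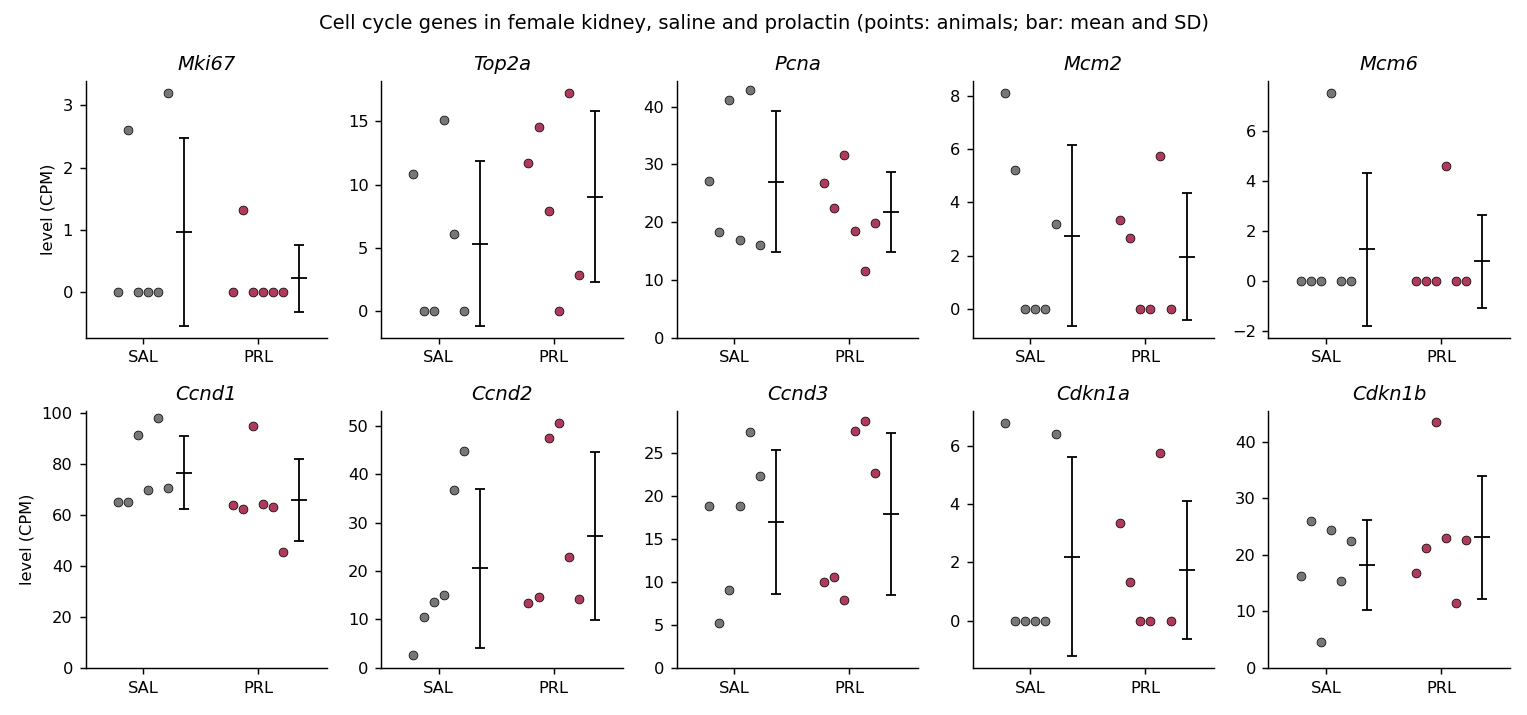
Levels of the 10 genes (vertical axis, CPM) in the kidneys of females given saline (SAL, grey) or prolactin (PRL, red). Points are animals, and the bars give the mean and SD, which reach below 0 where most animals had no read. The groups overlap in every panel, and Ccnd1 is read in every animal, between 45.4 and 97.9 CPM.

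The markers of dividing cells were at the edge of detection. Mki67, the antigen recognised by the proliferation antibody Ki-67, had 3 reads in the 12 libraries of experiment 2, 1 each in SAL 2, SAL 6 and PRL 2. Its pooled level was 0.933 CPM in SAL (95% exact Poisson interval 0.113 to 3.37) and 0.425 CPM in PRL (0.0108 to 2.37). The intervals, which cover counting error only, overlapped over most of their length. At this depth a difference in Mki67 within these intervals was not detectable.

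Top2a, which untangles DNA before chromosomes separate, had 14 reads in SAL and 24 in PRL. Its level ran from 0 to 15.05 CPM in SAL with a median of 3.06, and from 0 to 17.2 CPM in PRL with a median of 9.82. A read was found in 3 of the 6 SAL animals and 5 of the 6 PRL animals. The SAL mean was 5.33 ± 6.49 CPM (SD, n = 6) and the PRL mean 9.04 ± 6.72 CPM, a log2 fold change of 0.56 with a standard error of 0.61 and an adjusted p of 0.998 (edgeR). The 95% interval of the fold ran from 0.624 to 3.47, a wide range on both sides of no change.

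Pcna, the sliding clamp of the replication fork, was read in every female. It ran from 16.0 to 42.8 CPM with a median of 22.6 in SAL, and from 11.5 to 31.6 CPM with a median of 21.2 in PRL. Both groups had 54 reads of Pcna, and the 2 highest animals, SAL 3 and SAL 5, were given saline. The log2 fold change was -0.22 with a standard error of 0.33, and a two-sided exact permutation test of the mean CPM gave a p of 0.374.

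The minichromosome maintenance genes Mcm2 and Mcm6 encode subunits of the helicase that licenses replication origins. Mcm2 had 6 reads in SAL and 5 in PRL, each spread over 3 animals, with a highest level of 8.11 CPM in SAL and 5.75 CPM in PRL. Its log2 fold change was -0.40 with a standard error of 0.86. Mcm6 had 4 reads in SAL, all in SAL 4, and 1 read in PRL, in PRL 4, too few for a test across genes.

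The D cyclins were read in every female, and Ccnd1 was the member with the most reads, 310 in all. Ccnd1 encodes cyclin D1, the usual target of mitogen signals. It ran from 64.9 to 97.9 CPM in SAL with a median of 70.0, and from 45.4 to 94.9 CPM in PRL with a median of 63.4. PRL 3, at 94.9 CPM, was as high as the highest saline animals, while the other PRL animals lay between 45.4 and 64.4 CPM, below all SAL animals. The means were 76.5 ± 14.4 CPM and 65.6 ± 16.1 CPM, a log2 fold change of -0.28 with a standard error of 0.24 and a 95% interval of the fold from 0.593 to 1.15. The exact permutation test gave a p of 0.182, and edgeR an adjusted p of 0.998. Without PRL 3 the difference was -16.8 CPM with an exact permutation p of 0.00433, the smallest that 6 against 5 animals can give, and p ran from that value to 0.364 as each library was left out in turn. Without PRL 3, edgeR called 0 members too, as it did without SAL 6.

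Ccnd2, which encodes cyclin D2, varied among females more than any other member. It ran from 2.70 to 44.8 CPM with a median of 14.4 in SAL, and from 13.4 to 50.6 CPM with a median of 18.8 in PRL. SAL 5, SAL 6, PRL 3 and PRL 4 had 36.7 to 50.6 CPM, and the other 8 animals had 2.70 to 23.0 CPM. SAL 6, the library that stood apart, was the SAL animal with the highest Ccnd2. Around the mean of each group, the chi-square of the reads of Ccnd2 was 4.37 per degree of freedom, where counting error alone gives about 1, against 1.01 for Ccnd1, 1.16 for Cdkn1b, 1.21 for Pcna, 1.54 for Ccnd3 and 1.95 for Top2a. The log2 fold change of Ccnd2 was 0.18 with a standard error of 0.44, and 0.52 without SAL 6, and the exact permutation p was 0.498. Most reads of Ccnd2 fell on 5 predicted transcript models with the same reads, and its curated transcript NM_009829.3 had 6 reads in experiment 2.

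Ccnd3, the cyclin D3 gene, ran from 5.20 to 27.5 CPM in SAL with a median of 18.9, and from 7.91 to 28.7 CPM in PRL with a median of 16.6. The animals of both groups covered nearly the same range. Its mean was 17.0 ± 8.35 CPM in SAL and 17.9 ± 9.48 CPM in PRL, 0.920 CPM higher in PRL, while with CPM scaled by TMM the difference, PRL minus SAL, was -0.461 CPM. The fitted log2 fold change was -0.19 with a standard error of 0.41 and stayed below 0 in all 19 alternatives.

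**Figure D2:**
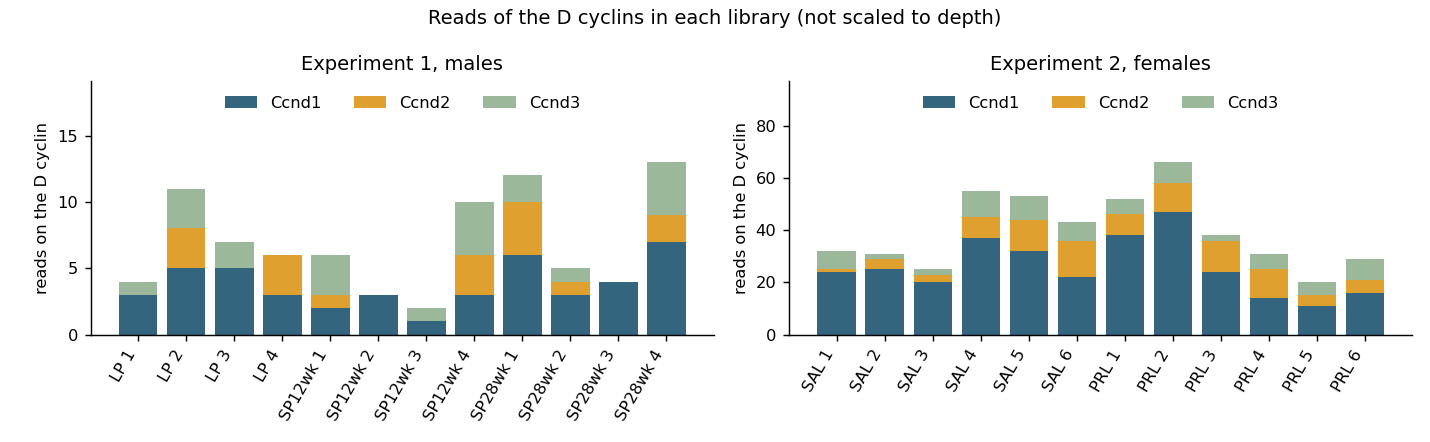
Reads of Ccnd1, Ccnd2 and Ccnd3 (vertical axis, reads, not scaled to depth) stacked for each library of experiment 1 (left) and experiment 2 (right). Ccnd1 makes up the largest block in every library of experiment 2, and its block is 1 to 7 reads high in experiment 1.

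Within an animal, the share of D cyclin reads that fell on each gene does not depend on depth. Ccnd1 took 51.2% to 80.6% of the D cyclin reads in SAL with a median of 71.1%, and 45.2% to 73.1% in PRL with a median of 59.2%. Ccnd2 took 3.12% to 32.6% in SAL with a median of 13.7%, and 15.4% to 35.5% in PRL with a median of 18.6%. The groups overlapped for each D cyclin, and the shares of the genes are not levels per length of transcript.

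Of the CDK inhibitors, Cdkn1b was well read and Cdkn1a was not. Cdkn1b, which encodes p27, ran from 4.57 to 26.0 CPM in SAL with a median of 19.3, and from 11.5 to 43.5 CPM in PRL with a median of 21.9. PRL 3 had 43.5 CPM, and the other PRL animals had 11.5 to 23.0 CPM, within the range of SAL. The log2 fold change was 0.17 with a standard error of 0.36, and the 95% interval of the fold ran from 0.677 to 1.88. Cdkn1a, the p21 gene that p53 activates, had 4.51 estimated reads in 2 SAL animals and 4 reads in 3 PRL animals, with means of 2.20 and 1.74 CPM.

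**Figure D3:**
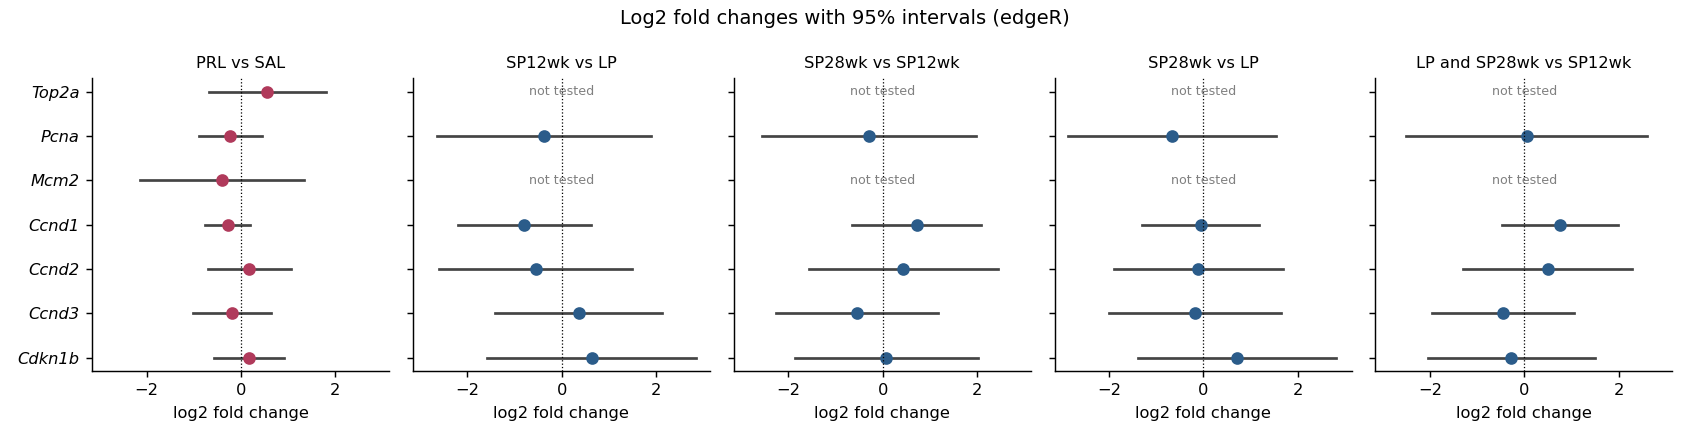
Log2 fold changes (horizontal axis) of the genes with enough reads for a fit, with 95% intervals from edgeR, for PRL against SAL and for the 4 comparisons of experiment 1. Every interval includes 0, and those of experiment 1 are wider, with standard errors of 0.63 to 1.30 against 0.24 to 0.86 in PRL against SAL.

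In the males, the same question was asked across the season, with 5 of the 10 genes read in at least 4 of the 12 libraries. The 4 comparisons, which share libraries, set SP12wk beside LP, SP28wk beside SP12wk, SP28wk beside LP, and the average of LP and SP28wk beside SP12wk. In each of them edgeR called 0 of the 5 genes. The background was 0.0197%, 0.138%, 0.216% and 0.0393% of the 5086 genes tested in that order. The number of the 5 with an unadjusted p below 0.05 was 0 in each, against 7.27%, 6.1%, 8.61% and 6.76% of all genes tested, and DESeq2 called 0. No listed member separated any pair of groups in CPM, where 2.67%, 3.38%, 3.3% and 0.492% of all genes tested did. Two-sided exact permutation tests of 4 against 4 animals cannot go below a p of 0.0286. Over both experiments 34 such tests of a member were made, of which 33 had a difference to test, with p between 0.133 and 1 before any adjustment.

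Ccnd1 was the only member with reads in all 12 males, 45 in all. It was at 141, 280.4, 277 and 117 CPM in LP, at 81.7, 191, 50.2 and 84.8 CPM after 12 weeks of short photoperiod, and at 237, 124, 114 and 122 CPM after 28 weeks. These levels were 1 to 7 reads per library. LP 2 and LP 3 were the highest animals and are the libraries that stood apart, 3 of the 4 SP12wk animals were below all others, and SP12wk 2 lay within the range of LP. The mean of the LP animals was 204 ± 87.3 CPM, that of the SP12wk animals 102 ± 61.5 CPM and that of the SP28wk animals 149 ± 58.7 CPM (SD, n = 4 each).

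For SP12wk against LP the log2 fold change of Ccnd1 was -0.79 with a standard error of 0.72 and an adjusted p of 0.823 (edgeR). The exact permutation p was 0.143. Without LP 2 and LP 3, the libraries that stood apart, the log2 fold change was -0.40. The average of LP and SP28wk against SP12wk gave a log2 fold change of 0.76 with a standard error of 0.63 and an exact permutation p of 0.133. That exact permutation p was 0.0364 with CPM scaled by TMM, the library factors of edgeR, and between 0.0121 (without SP12wk 2) and 0.339 as each library was left out, while edgeR called 0 members in all of these settings. For SP28wk against LP the log2 fold change was -0.062 with a standard error of 0.63. It was -0.44 with library totals in place of TMM, the scale of the CPM means above, and 0.28 without LP 2 and LP 3.

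**Figure D4:**
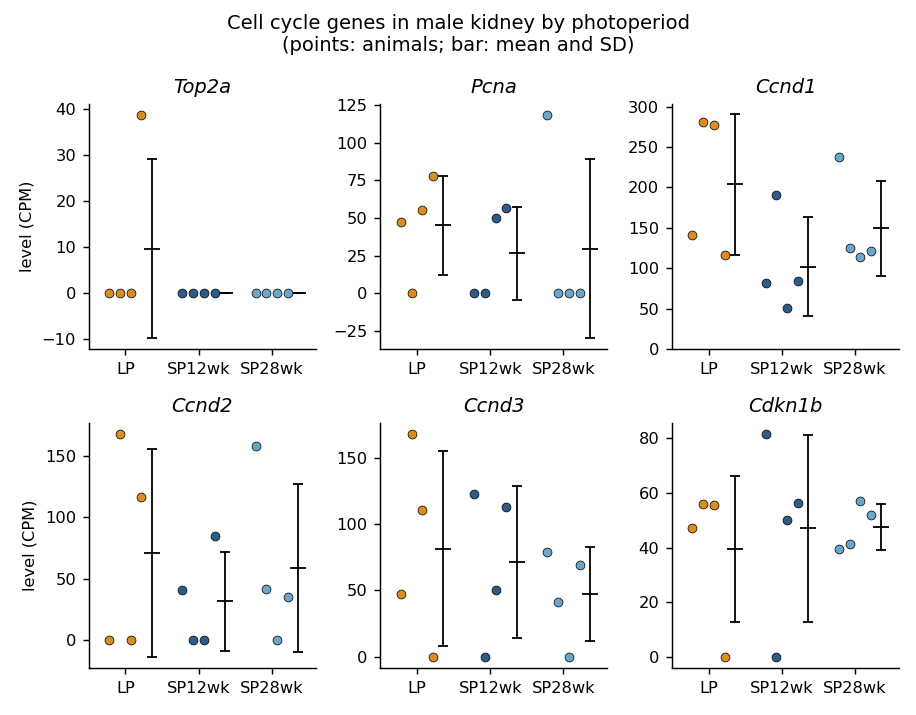
Levels of the 6 listed genes (vertical axis, CPM) in male kidneys in LP, SP12wk and SP28wk. Points are animals, and the bars give the mean and SD, which reach below 0 where most animals had no read. Ccnd1 is read in all 12 animals, 3 of the 4 SP12wk animals lie lowest, and many animals are at 0 for the other genes.

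The other D cyclins were read in some males only. Ccnd2, with 17 reads in all, was at 0, 168, 0 and 117 CPM in LP. After 12 weeks of short photoperiod it was at 40.9, 0, 0 and 84.8 CPM, and after 28 weeks at 158, 41.5, 0 and 34.7 CPM. Ccnd3, with 21 reads, was at 47.0, 168, 111 and 0 CPM in LP, at 123, 0, 50.2 and 113 CPM after 12 weeks and at 79.0, 41.5, 0 and 69.5 CPM after 28 weeks. Every group of either gene held an animal without a read, and the groups overlapped over nearly their whole range. The log2 fold changes of both genes lay between -0.55 and 0.50 in the 4 comparisons, with standard errors of 0.77 to 1.04.

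Cdkn1b was read in 10 of the 12 males. It was at 47.0, 56.1, 55.5 and 0 CPM in LP, at 81.7, 0, 50.2 and 56.5 CPM after 12 weeks and at 39.5, 41.5, 57.1 and 52.1 CPM after 28 weeks, with 1 to 3 reads wherever it was read. The group means were 39.7, 47.1 and 47.6 CPM. The log2 fold changes were 0.64 for SP12wk against LP and 0.72 for SP28wk against LP, with standard errors of 1.13 and 1.07, and 0.082 for SP28wk against SP12wk.

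Pcna was at 47.0, 0, 55.5 and 77.7 CPM in LP, at 0, 0, 50.2 and 56.5 CPM after 12 weeks and at 119, 0, 0 and 0 CPM after 28 weeks. These levels rest on 4, 3 and 3 reads. The 3 reads in SP28wk were all in SP28wk 1, which also had the highest Ccnd1 of its group. Top2a had 1 read in experiment 1, in LP 4, and 0 reads in SP12wk and SP28wk, where 3 reads over the group would be worth 31.4 and 21.1 CPM. The absence of reads at this depth is not a measure of absence in the tissue, also because hamster reads were named by mouse transcripts.

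The wider set of cell cycle genes, in lists drawn up with earlier results of these data known, held no called gene in any comparison (edgeR), as was the case for the 10 members. Of 47 genes of replication licensing and the replication fork, 42 were listed and 30 tested in PRL against SAL, 20 with a log2 fold change above 0 and 10 below. Their median was 0.18, beside 0.028 over all genes tested, and 0 of the 30 had an unadjusted p below 0.05. Rpa3, a subunit of the single-strand binding protein RPA, was at 251 ± 57.7 CPM in saline and 240 ± 92.7 CPM in prolactin animals. Rfc3, a clamp loader subunit, had the smallest p of this list, at 6.87 ± 2.90 CPM in saline and 13.99 ± 7.32 CPM in prolactin animals, with an unadjusted p of 0.0777 and an adjusted p of 0.998.

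Of 36 genes of mitosis, 27 were listed and 12 tested in PRL against SAL, 5 above 0 and 7 below, with a median log2 fold change of -0.042. Most of the reads of this list came from the histone variant H2az1, at 1032 ± 143 CPM in saline and 1035 ± 280 CPM in prolactin animals, a gene that is also expressed in resting cells. The mitotic cyclins Ccnb1 and Ccna2 had 6 and 5 reads in SAL and 3 and 0 in PRL, and Cdk1, the mitotic kinase, had 0 and 4. Cks1b, a CDK subunit that also helps to degrade p27, was at 3.32 ± 0.739 CPM in saline and 9.31 ± 6.76 CPM in prolactin animals. Its log2 fold change was 1.30 with a standard error of 0.61, an unadjusted p of 0.0402 and an adjusted p of 0.993 (edgeR). It ran from 2.60 to 4.57 CPM in SAL and from 5.02 to 22.7 CPM in PRL. The groups thus did not overlap, as was the case for 0.14% of all genes tested. These levels rest on 7 reads in SAL and 20 in PRL, and the gene was picked by its p. Cks1b was the only gene of the list with an unadjusted p below 0.05.

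In the list of G1 kinases, cyclin E and the RB-E2F genes, 17 of 29 were tested, 10 above 0 and 7 below, with a median log2 fold change of 0.12 and 0 genes at an unadjusted p below 0.05. Rb1, the retinoblastoma gene, was at 28.9 ± 16.1 CPM in SAL and 32.5 ± 14.9 CPM in PRL. Its relative Rbl2, which represses cell cycle genes in resting cells, was at 43.0 ± 15.9 and 33.7 ± 16.0 CPM. Tfdp2, a partner of the E2F factors, was at 4.46 ± 3.78 and 10.7 ± 4.62 CPM with an unadjusted p of 0.0876.

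The list of the other CDK inhibitors had 4 of 6 genes listed and 3 tested, all 3 above 0. Cdkn2d, which encodes the CDK4 and CDK6 inhibitor p19, ran from 0 to 16.0 CPM in SAL and from 10.05 to 28.7 CPM in PRL, with means of 7.96 ± 7.20 and 20.6 ± 6.28 CPM. Its log2 fold change was 1.22 with a standard error of 0.48, an unadjusted p of 0.0145 and an adjusted p of 0.752 (edgeR), so that it did not pass. The ranges of the groups overlapped between 10.05 and 16.0 CPM. Cdkn2c, the p18 gene, was at 10.3 ± 10.96 and 12.9 ± 3.36 CPM.

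Genes of the p53 pathway, which halts division after damage, were 16 of 22 tested, 4 above 0 and 12 below, with a median log2 fold change of -0.15. Bax, a promoter of cell death, was at 152 ± 38.3 CPM in SAL and 132 ± 24.8 CPM in PRL. Gadd45a, a stress gene, was at 52.0 ± 21.4 and 38.2 ± 9.56 CPM, with an unadjusted p of 0.0493 and an adjusted p of 0.998. Perp, a p53 target of cell junctions, was at 19.7 ± 6.33 and 39.0 ± 16.1 CPM, with an unadjusted p of 0.00934 and an adjusted p of 0.647.

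Genes of cell growth, which bear on cell size, were 21 of 24 tested in PRL against SAL, 11 above 0 and 10 below, with a median log2 fold change of 0.11. Rps6, a ribosomal protein whose phosphorylation follows the growth kinase mTOR, was at 2452 ± 315 CPM in SAL and 2780 ± 396 CPM in PRL, with an adjusted p of 0.998. Egf, the growth factor made by the distal tubule, was at 178 ± 56.2 and 217 ± 78.6 CPM. Hgf, the growth factor of interstitial cells that acts on tubules, was at 7.68 ± 7.37 and 2.93 ± 3.82 CPM, with an unadjusted p of 0.0185 and an adjusted p of 0.807. Neither the division genes nor the growth genes thus held a gene that passed, and mRNA levels do not measure cell size or the activity of growth pathways.

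**Figure D5:**
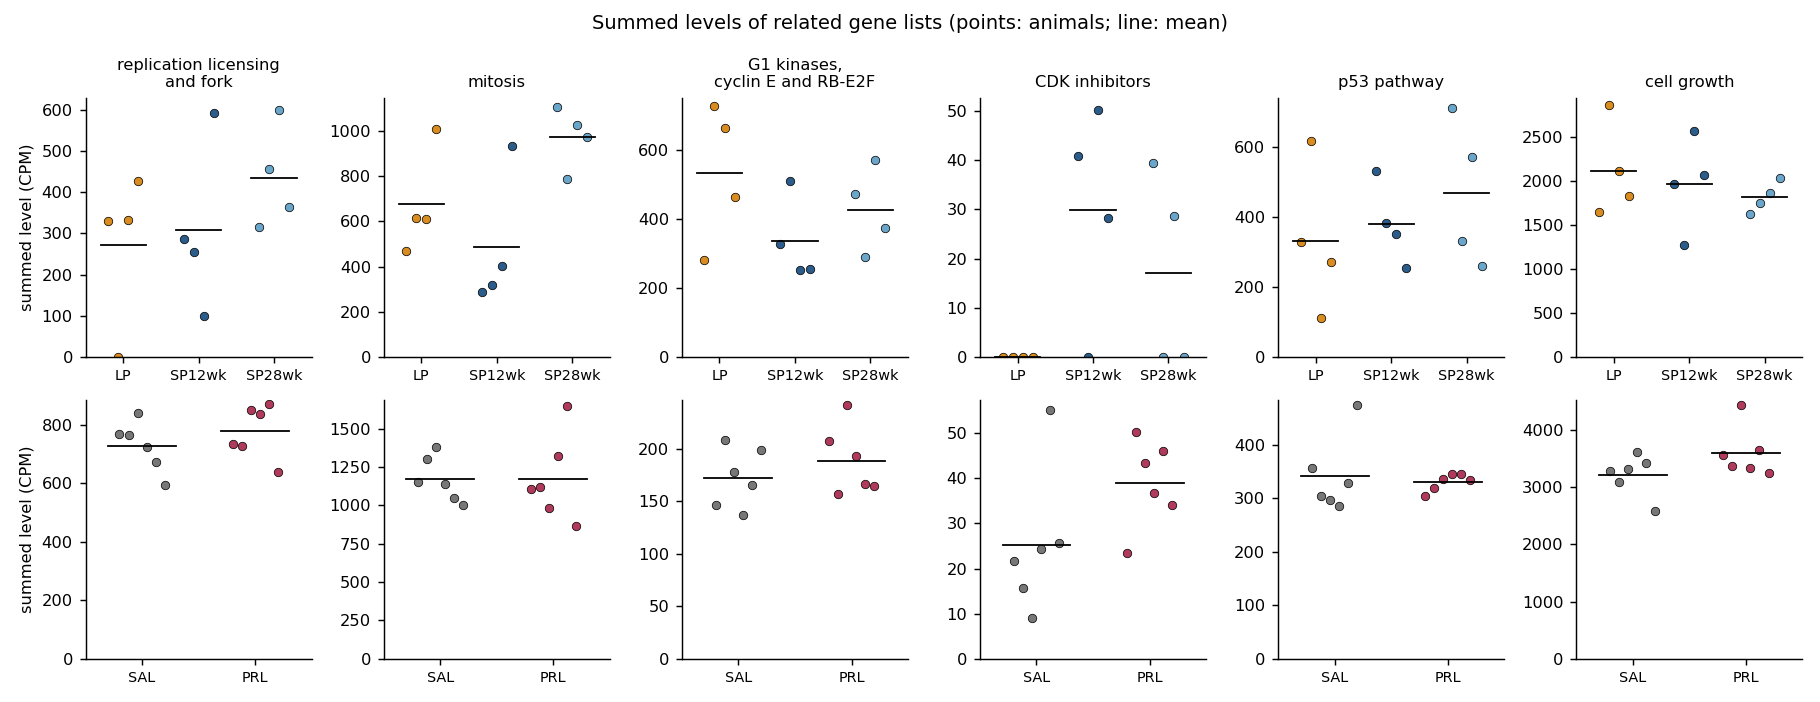
Summed levels (vertical axis, CPM) of 6 lists of related genes in each animal of experiment 1 (upper row) and experiment 2 (lower row), with a line at the group mean. SAL and PRL overlap for all 6 lists, and the CDK inhibitor list has no read in any LP animal.

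In the males these lists rested on few reads, and the genes tested are those that passed the filter, which a gene can pass through the group where it is high. Of the 13 listed mitosis genes only 4 were tested. Of these, 0 were above 0 and 4 below in SP12wk against LP, with a median log2 fold change of -0.97 beside 0.0023 over all genes tested. In SP28wk against SP12wk all 4 were above 0, with a median of 1.42 beside 0.16 over all genes, and in SP28wk against LP 3 of the 4 were, with a median of 1.01 beside 0.18. Of the 8 replication genes tested, 7 were above 0 in SP28wk against LP, with a median of 0.85, 6 in SP28wk against SP12wk, with a median of 0.23, and 4 in SP12wk against LP, with a median of 0.30. Of the 6 tested genes of the G1 list, 1 was above 0 in SP12wk against LP (median -0.61), 4 in SP28wk against SP12wk (median 0.97) and 5 in SP28wk against LP (median 0.48). Of the 8 tested genes of the p53 list, 5 were above 0 in SP12wk against LP (median 0.79), 6 in SP28wk against SP12wk (median 0.15) and 5 in SP28wk against LP (median 1.12). Of the 11 tested genes of cell growth, 6, 6 and 7 were above 0 in the same order, with medians of 0.013, 0.10 and 0.011. With LP and SP28wk averaged against SP12wk, 4 of 4 mitosis genes, 5 of 8 replication genes, 5 of 6 genes of the G1 list, 3 of 8 p53 genes and 6 of 11 growth genes were above 0. In all these comparisons 0 genes of the lists passed the test. In SP12wk against LP, 2 of the 8 replication genes had an unadjusted p below 0.05 (edgeR) upward, beside 7.27% of all genes. In SP28wk against SP12wk, 1 gene each of the replication, mitosis, G1 and growth lists did so, beside 6.1%. In SP28wk against LP, 1 replication and 1 p53 gene did so, beside 8.61%. With LP and SP28wk averaged, 1 replication and 1 growth gene were upward and 1 replication gene downward, beside 6.76%. A fall to SP12wk and a rise from it rest on the same SP12wk animals and are not separate results.

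The whole mitosis list, of which most reads were of H2az1, summed to between 470.4 and 1010 CPM in the LP animals, between 286 and 933 CPM after 12 weeks and between 788 and 1107 CPM after 28 weeks of short photoperiod, groups that overlapped. Without H2az1 and Ube2s, the 2 genes with most reads, the list held 9 LP reads, 3 SP12wk reads and 20 SP28wk reads over 11 listed genes. Its sum was then 0 to 168 CPM in LP, 0 to 63.7 CPM in the SP12wk animals and 104 to 171 CPM in the SP28wk animals, so that the SP12wk and SP28wk animals did not overlap while LP overlapped both. This is a description without a test, and in that comparison 3.38% of all genes tested did not overlap. The SP28wk libraries held 24102 to 57585 reads and the SP12wk libraries 15687 to 35387, and the part of depth in this was not tested. The CDK inhibitors other than the 2 members had 0 reads in LP, where 3 reads over the group would be worth 36.2 CPM, 3 reads in SP12wk and 2 in SP28wk.

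The libraries were also compared for cells other than tubule cells, since dividing cells of a kidney can be leukocytes, and since in bulk RNA fewer cells of a type and less RNA per cell cannot be told apart. In experiment 2, leukocyte markers summed to 64.0 to 123 CPM in SAL and 51.4 to 184 CPM in PRL, with 6 of 9 listed and the defining genes Ptprc, Adgre1 and Cd3e not listed. In experiment 1 no LP read, 1 SP12wk read and 10 SP28wk reads fell on them. Proximal tubule markers, 6 of 7 listed, summed to 1069 to 1946 CPM in SAL and 1151 to 2250 CPM in PRL. Adipocyte markers, mostly Fabp4, summed to 39.5 to 239 CPM in SAL and 78.0 to 292 CPM in PRL, and adrenal markers to at most 17.2 CPM. Their part in the levels of the 10 genes was not tested.

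Among the 3213 genes with at least 10 reads per library on average in experiment 2, the levels most like those of Ccnd1 over the 12 libraries were those of Enpp2 (Pearson r = 0.885), Mtpn (0.844) and Irak1bp1 (0.839), on log2 CPM. As the highest values picked among so many genes on 12 points, these r are high in part by selection, and they were not tested. The 12 points share both groups and their depths, and the median r over all genes was -0.011. No other member had enough reads for this description.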

How the data were processed

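Kidney RNA of 24 hamsters was sequenced on nanopore flow cells, 12 libraries per experiment. The authors basecalled the reads with Guppy 4.2.1, removed adapters with Porechop 0.2.4, selected reads with Filtlong 0.2.0 and used Minimap2 2.17 for alignment against a mouse reference. The deposited tables hold estimated counts for each mouse RefSeq transcript without normalisation, and the submitters' processing notes also name Salmon. For the sharing of reads among transcripts no rule was given in the sources used here. The labels name a PCR-cDNA kit and the methods a direct cDNA kit. All value columns were used.

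For each gene symbol the transcript row with the highest total was kept. CPM was calculated on the total of these rows. Rounded counts were fitted in R 4.3.3 with edgeR 4.0.16 (glmQLFit, TMM), 1 model per experiment without covariates, for genes with a read in at least 4 (experiment 1) or 6 (experiment 2) of 12 libraries, and p was adjusted over all genes tested (Benjamini-Hochberg, 0.05). The fit was also run on simulated counts for SP28wk against LP and PRL against SAL. Changes were set only in genes at or above the median of mean reads among those tested. That run therefore does not show what the fit detects for genes with fewer reads. Group means were also compared by two-sided exact permutation tests of CPM. Poisson intervals cover counting error only and not the variation between animals, and reads carry no molecular identifiers. The p-values set a difference between groups against the variation between the samples sequenced. Alternatives were sums over transcripts, other filters, other scaling, DESeq2 1.42.0, a replicate block and leaving out each library. The members, lists and tests were chosen with earlier results of these data known. The text names all members and, per list, the 2 genes with most reads in experiment 2, the gene with the smallest p in PRL against SAL and any called gene; Ccna2, Ccnb1 and Cdk1 were named after their values were seen. The values of 1 gene that this rule names are not reported here.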

Additional observations from a re-analysis of the deposited data

Results flagged for a closer look

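Of 38 sets of values of a member in a group, 8 held an animal far from the rest. A chance rate of about 1 in 20 cannot be taken over to sets with so few reads. In 5 of the 8, the other animals had no read, which makes any read stand apart. They were Mki67 in PRL 2 (1.32 CPM, 1 read), Top2a in LP 4 (38.8 CPM, 1 read), Pcna in SP28wk 1 (119 CPM, 3 reads), and Mcm6 in SAL 4 (7.52 CPM, 4 reads) and in PRL 4 (4.60 CPM, 1 read).

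The other 3 concerned genes read in most animals of the group. Ccnd1 in SP28wk 1 was at 237 CPM (6 reads), while the other SP28wk animals were at 114 to 124 CPM. Cdkn1b in LP 4 was at 0 CPM, while the other LP animals were at 47.0 to 56.1 CPM, which is 1 read each. Cdkn1b in PRL 3 was at 43.5 CPM (11 reads), while the other PRL animals were at 11.5 to 23.0 CPM, and PRL 3 was also the PRL animal with the highest Ccnd1.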

How the results depend on the processing

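By edgeR or DESeq2, no member was called in any comparison under any alternative, with adjusted p of the members at or above 0.534 throughout. The members had few reads in experiment 1, and the direction of most members could turn, in at least 1 comparison, with 1 library left out. The exact permutation test of Ccnd1 passed 0.05 in the 3 settings given above and that of no other member in any. The replicate numbers did not pair the samples, since same-numbered libraries deviated together with correlations of -0.095 to 0.17 in experiment 1 and -0.15 to 0.20 in experiment 2, and the libraries closest to their own number were 4 of 12 and 2 of 12. LP 2 and LP 3 were left out together as an alternative chosen after seeing the data. Scaling by library totals in place of TMM moved the median log2 fold change of all genes by -0.17 for SP12wk with LP, -0.15 for SP28wk with SP12wk, -0.34 for SP28wk with LP and 0.051 for PRL against SAL.

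The number of genes called over the whole table changed more. In PRL against SAL, 0 genes were called, 1 with sums over transcripts, 92 without a filter and 94 with the replicate block, none of them a member. Leaving out each library gave 0 to 44, with 44 without PRL 4, 27 without SAL 6, 26 without PRL 3 and 1 without SAL 5. In SP12wk against LP, 1 gene was called, 0 with sums over transcripts, without a filter, with a stricter filter, with DESeq2 size factors, with library totals, with DESeq2 and with the replicate block, 2 without LP 2 and LP 3, and 0 to 8 as each library was left out (8 without LP 4, 7 without SP12wk 1, 4 without SP12wk 2, and 0 without any of the other 9). In SP28wk against SP12wk, 7 genes were called, 0 with sums over transcripts, 2 with a stricter filter, 2 with DESeq2, 18 without LP 2 and LP 3, and 2 to 11 as each library was left out (11 without LP 2, 4 without SP12wk 2, and 2 without SP12wk 4, SP28wk 3 or SP28wk 4). In SP28wk against LP, 11 genes were called, 0 with sums over transcripts, 5 with a stricter filter, 3 with DESeq2, 2 without LP 2 and LP 3, and 8 to 54 as each library was left out (54 without LP 4, 23 without SP28wk 1). In LP and SP28wk against SP12wk, 2 genes were called, 0 with sums over transcripts, without a filter, with a stricter filter and with DESeq2, 7 without LP 2 and LP 3, and 0 to 2 as each library was left out (0 without LP 4, SP12wk 1, SP12wk 2, SP12wk 3, SP28wk 3 or SP28wk 4). The causes were not tested.

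Of 199 log2 fold changes of a member under other settings, 194 kept their direction, as did 291 of 318 with a library left out. With sums over transcripts, Cdkn1b in SP28wk against SP12wk was -0.015 and Ccnd2 in SP28wk against LP 0.088. With library totals, Cdkn1b in SP28wk against SP12wk was -0.070. Without LP 2 and LP 3, Ccnd1 in SP28wk against LP was 0.28 and Ccnd3 was 1.16. With 1 library left out, the log2 fold change in SP12wk against LP ran from -1.21 to 0.13 for Pcna and from -0.041 to 0.88 for Ccnd3. In SP28wk against SP12wk it ran from -2.95 to 0.48 for Pcna, from -0.47 to 1.57 for Ccnd2 and from -0.25 to 0.33 for Cdkn1b. In SP28wk against LP it ran from -0.32 to 0.021 for Ccnd1, from -1.02 to 0.35 for Ccnd2 and from -0.66 to 0.28 for Ccnd3. For Pcna it ran from -1.29 to 0.85 in LP and SP28wk against SP12wk. In PRL against SAL it ran from -0.091 to 0.52 for Ccnd2 and from -0.054 to 0.30 for Cdkn1b.

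Of 68 differences in mean CPM under other settings, 63 kept their direction and their side of the threshold, as did 303 of 336 with a library left out. With CPM scaled by TMM, Ccnd3 differed by 11.6 CPM in SP12wk against LP, Ccnd2 by 3.48 CPM in SP28wk against LP and Ccnd3 by -0.461 CPM in PRL against SAL. With sums over transcripts, Cdkn1b differed by -0.131 CPM in SP28wk against SP12wk. With 1 library left out, the difference in SP12wk against LP ran from -37.3 to 18.8 CPM for Ccnd3 and from -5.76 to 23.2 CPM for Cdkn1b. In SP28wk against SP12wk it ran from -26.7 to 12.9 CPM for Pcna, from -6.01 to 46.7 CPM for Ccnd2 and from -15.3 to 11.99 CPM for Cdkn1b. In SP28wk against LP it ran from -45.8 to 19.7 CPM for Ccnd2 and from -5.31 to 13.4 CPM for Cdkn1b. In LP and SP28wk against SP12wk it ran from -0.934 to 20.6 CPM for Pcna, from -30.7 to 10.1 CPM for Ccnd3 and from -19.2 to 8.04 CPM for Cdkn1b. In PRL against SAL it ran from -1.55 to 0.276 CPM for Mcm2, from -1.25 to 0.766 CPM for Mcm6, from -1.44 to 3.03 CPM for Ccnd3 and from -1.26 to 0.456 CPM for Cdkn1a.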
